A study of Mus musculus with 6 samples.

Results

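Members of the ADAMTS family of secreted metalloproteases were followed in 2 fibroblast populations of the pubertal mouse mammary gland. The 10 genes were Adamts1, Adamts2, Adamts4, Adamts5, Adamts7, Adamts9, Adamts10, Adamts12, Adamts15 and Adamts16, of 19 ADAMTS protease genes and of 27179 genes in the count table. They were chosen by name, from a list drawn up with their levels in these libraries already known, so the differences between the populations are given for them as a description. All 10 passed the filter on low counts.

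Bulk RNA-seq was performed on CD34 high (CD34hi) and CD34 low (CD34lo) fibroblasts from the mammary glands of FVB/N mice at 6 weeks of age, with no treatment named,, sorted as lineage-negative, CD24-negative and Pdgfra-positive cells. Both populations were sorted from each of 3 pools of 2 mice, which gave 3 libraries per population, paired by pool. A pool averages its 2 mice, and the populations are defined by a gate on CD34, so each may hold several fibroblast states. In bulk RNA, fewer cells of a type and less RNA per cell cannot be told apart.

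ADAMTS proteases are made as inactive precursors in the secretory pathway, trimmed by proprotein convertases such as furin, and held in the pericellular matrix by thrombospondin repeats and other ancillary domains. They fall into groups by what they cut. Some cleave the large hyaluronan-binding proteoglycans such as versican and aggrecan, some remove the amino-terminal propeptide of fibrillar procollagens, some cut cartilage oligomeric matrix protein, and some act on fibrillin microfibrils. Fibroblasts are a main source of these enzymes in connective tissue.

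Depth lay between 28764779 and 52402410 counts per library. Cd34, the gene of the sorting antigen, was at 2571 ± 75.2 normalised read counts (CPM, scaled to library size, SD, n = 3) in CD34hi and 634 ± 158 CPM in CD34lo libraries. Pdgfra, the other sorting marker, was at 754 ± 149 CPM in CD34hi and 1256 ± 197 CPM in CD34lo libraries. Of 15219 genes tested with edgeR's quasi-likelihood test, 35.6% differed between the populations at an adjusted p under 0.05, 16.9% being higher in CD34hi and 18.7% higher in CD34lo. Markers of mural cells, which wrap blood vessels, had a summed level of 10.1 to 13.7 CPM in CD34hi and 87.4 to 119 CPM in CD34lo libraries, and 5 of 5 were higher in CD34lo. The 13 immediate early and stress genes summed to 24100 to 28400 CPM in CD34hi and 42300 to 56800 CPM in CD34lo libraries, and 10 of 13 were higher in CD34lo. Leukocyte markers summed to 2.39 to 3.53 CPM in CD34hi and 5.39 to 6.22 CPM in CD34lo libraries, and 0 of the 3 that could be tested passed. Of 5 endothelial markers, Pecam1 (log2 fold change, CD34hi minus CD34lo, -1.14) and Cdh5 (-1.29) were higher in CD34lo and Kdr (3.14) was higher in CD34hi. The mural, immediate early and leukocyte sums, Pecam1 and Cdh5 moved with the ADAMTS genes that were higher in CD34lo, and their part in those differences was not tested. In the other direction, 4 Schwann cell markers summed to 37.9 to 48.4 CPM in CD34hi and 15.1 to 17.9 CPM in CD34lo, where Mbp made up most of the sum and 2 of the 4 were higher in CD34lo. The 3 keratinocyte markers summed to 14.3 to 19.9 CPM in CD34hi and 3.60 to 7.12 CPM in CD34lo, with Krt1 at 0 in every library. Their part in the differences of Adamts5 and Adamts16 was not tested.

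Promoter sequences were on hand for 4 of the 10 genes, and all 4 are shown. They belong to the 2 genes with the highest levels (Adamts1 and Adamts2) and to 2 genes that were higher in CD34lo (Adamts9 and Adamts12). Each runs over 300 bases around the start of a RefSeq transcript on GRCm38.p6, written 5′ to 3′ along the gene. Capitals mark a TATA box (TATAAA) or a GC box (GGGCGG, or CCGCCC on the other strand). Adamts1 lies at chr16:85803064-85803363 on the minus strand, Adamts2 at chr11:50601835-50602134 on the plus strand, Adamts9 at chr6:92943485-92943784 on the minus strand and Adamts12 at chr15:11064523-11064822 on the plus strand.
Adamts1: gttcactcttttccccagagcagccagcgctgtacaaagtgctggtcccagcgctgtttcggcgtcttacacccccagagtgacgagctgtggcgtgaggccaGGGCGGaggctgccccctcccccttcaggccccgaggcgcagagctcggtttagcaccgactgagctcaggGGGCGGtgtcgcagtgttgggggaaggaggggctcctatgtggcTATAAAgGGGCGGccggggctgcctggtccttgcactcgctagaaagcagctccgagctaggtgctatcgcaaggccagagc
Adamts2: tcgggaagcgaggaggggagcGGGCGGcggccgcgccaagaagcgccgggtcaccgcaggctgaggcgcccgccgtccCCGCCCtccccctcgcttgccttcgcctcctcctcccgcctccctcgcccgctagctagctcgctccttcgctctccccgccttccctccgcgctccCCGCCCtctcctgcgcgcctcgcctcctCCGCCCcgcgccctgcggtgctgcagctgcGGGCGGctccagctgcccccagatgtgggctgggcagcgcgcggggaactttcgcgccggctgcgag
Adamts9: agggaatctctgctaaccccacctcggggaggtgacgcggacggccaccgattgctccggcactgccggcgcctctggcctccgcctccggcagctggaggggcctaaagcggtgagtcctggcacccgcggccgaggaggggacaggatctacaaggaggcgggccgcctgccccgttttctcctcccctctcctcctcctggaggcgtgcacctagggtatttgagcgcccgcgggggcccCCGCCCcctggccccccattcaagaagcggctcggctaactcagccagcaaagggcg
Adamts12: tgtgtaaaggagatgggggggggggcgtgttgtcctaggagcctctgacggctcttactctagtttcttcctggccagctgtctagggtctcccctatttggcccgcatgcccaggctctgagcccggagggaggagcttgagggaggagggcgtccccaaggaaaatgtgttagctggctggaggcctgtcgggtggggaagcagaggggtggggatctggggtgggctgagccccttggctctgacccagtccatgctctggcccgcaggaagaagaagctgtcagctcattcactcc

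Adamts1 was the only one of the 4 with a TATA box, 32 bases before the start, in the same window as 3 GC boxes. The Adamts2 promoter held 5 GC boxes, that of Adamts9 held 1 and that of Adamts12 held none. Over 32851 promoters of the same length, 13.6% held TATAAA and 35.7% held GGGCGG on either strand. The cAMP response element TGACGTCA (1.79% of all promoters), the AP-1 site TGANTCA (7.81%), the GLI core GACCACCCA (0.253%) and CCAAT (37.4%) were searched on both strands and were in none of the 4 windows. GC content was 64.7% for Adamts1, 77.3% for Adamts2, 70.0% for Adamts9 and 62.0% for Adamts12, beside a median of 52.7% over all promoters. The transcript start in the Adamts9 window lies 42093 bases upstream of the span in which reads of that gene were counted.

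Adamts1 (chromosome 16, 85793827 to 85803115), a protease of versican and aggrecan, was the most abundant member. Its level was 1916, 1963 and 1981 CPM in the CD34hi libraries of pools 1, 2 and 3 and 1707, 2208 and 1471 CPM in the matching CD34lo libraries. The CD34hi values lay within the range of the CD34lo values, so the groups overlapped. The fitted log2 fold change (CD34hi minus CD34lo) was 0.12 (SE 0.17), and pool 2 alone had the higher level in CD34lo.

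Adamts5 (chromosome 16, 85858157 to 85901125), the main aggrecan-degrading enzyme of mouse cartilage, which also cuts versican, was at 670, 811 and 1377 CPM in CD34hi and 161, 278 and 276 CPM in CD34lo libraries. The groups did not overlap, and the highest value was that of pool 3 in CD34hi. The log2 fold change was 2.00 (SE 0.31) and the within-pool differences were 2.06, 1.54 and 2.32 on the log2 scale. Adamts5 and Adamts1 are neighbours on the same strand, 55.0 kb apart, with 1 annotated gene between them, 4930556C24Rik, which had 0 counts.

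Adamts4 (chromosome 1, 171250422 to 171259922), the other classical aggrecanase, ran the opposite way to Adamts5. Its level was 35.3, 32.5 and 37.6 CPM in CD34hi and 230, 202 and 179 CPM in CD34lo libraries. The groups did not overlap, and the log2 fold change was -2.53 (SE 0.14), or 5.79-fold higher in CD34lo.

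Adamts9 (chromosome 6, 92772699 to 92901441), a versican-cleaving protease with a carboxy-terminal GON domain, was at 20.6, 15.6 and 15.6 CPM in CD34hi and 59.7, 66.9 and 57.8 CPM in CD34lo libraries. Every CD34lo library was above every CD34hi library, and the log2 fold change was -1.83 (SE 0.15), or 3.56-fold higher in CD34lo. The antisense gene A730049H05Rik overlaps it, with 136 counts over all libraries against 9090 for Adamts9, and 10.5% of the 50-base words of Adamts9 transcripts occurred in antisense genes.

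Adamts15 (chromosome 9, 30899155 to 30922452), a further versican-cleaving member, was at 133, 170 and 127 CPM in CD34hi and 86.9, 136 and 76.6 CPM in CD34lo libraries. The groups overlapped because the CD34lo library of pool 2 exceeded 2 of the CD34hi libraries, yet within each pool CD34hi was higher, by 0.61, 0.32 and 0.72 on the log2 scale. The log2 fold change was 0.52 (SE 0.22).

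Adamts16 (chromosome 13, 70727808 to 70841810), a relative of Adamts18 known from studies of the kidney and gonad, had the widest difference of the 10. It was at 63.2, 77.2 and 61.7 CPM in CD34hi and 0.590, 0.755 and 1.09 CPM in CD34lo libraries. The CD34lo libraries were near the bottom of the scale but above the level of 3 counts, which was 0.0573 to 0.104 CPM in these libraries. The log2 fold change was 6.41 (SE 0.23), or 85.0-fold higher in CD34hi, and the within-pool differences were 6.63, 6.58 and 5.76.

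Adamts2 (chromosome 11, 50602085 to 50804049), the principal procollagen N-proteinase, was at 529, 625 and 800 CPM in CD34hi and 375, 568 and 408 CPM in CD34lo libraries. The groups overlapped, since the CD34lo library of pool 2 exceeded the CD34hi library of pool 1, but CD34hi was the higher one in every pool. The log2 fold change was 0.53 (SE 0.21). It was 0.30 without pool 3 and 0.77 without pool 2.

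Adamts7 and Adamts12 form the pair of family members that cut cartilage oligomeric matrix protein. Adamts7 (chromosome 9, 90162978 to 90200102) was at 8.43, 7.12 and 11.7 CPM in CD34hi and 65.9, 48.3 and 66.3 CPM in CD34lo libraries. Adamts12 (chromosome 15, 11064790 to 11346867) was at 157, 123 and 201 CPM in CD34hi and 435, 493 and 570 CPM in CD34lo libraries. Neither gene's groups overlapped. The log2 fold change was -2.73 (SE 0.21) for Adamts7, or 6.63-fold higher in CD34lo, and -1.64 (SE 0.20) for Adamts12, or 3.12-fold higher. In the transcripts of Adamts7, 1.17% of 50-base words also occurred on the opposite strand of Tbc1d2b.

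Adamts10 (chromosome 17, 33524196 to 33553782), which binds fibrillin microfibrils, was at 85.6, 79.4 and 95.8 CPM in CD34hi and 152, 162 and 120 CPM in CD34lo libraries. The groups did not overlap, with a gap that was narrow in pool 3. The log2 fold change was -0.73 (SE 0.14), the smallest of the 7 members whose groups were apart. It was -0.66 without pool 1 and -0.58 without pool 2, and in both fits the gene was no longer past the threshold.

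**Figure D1:**
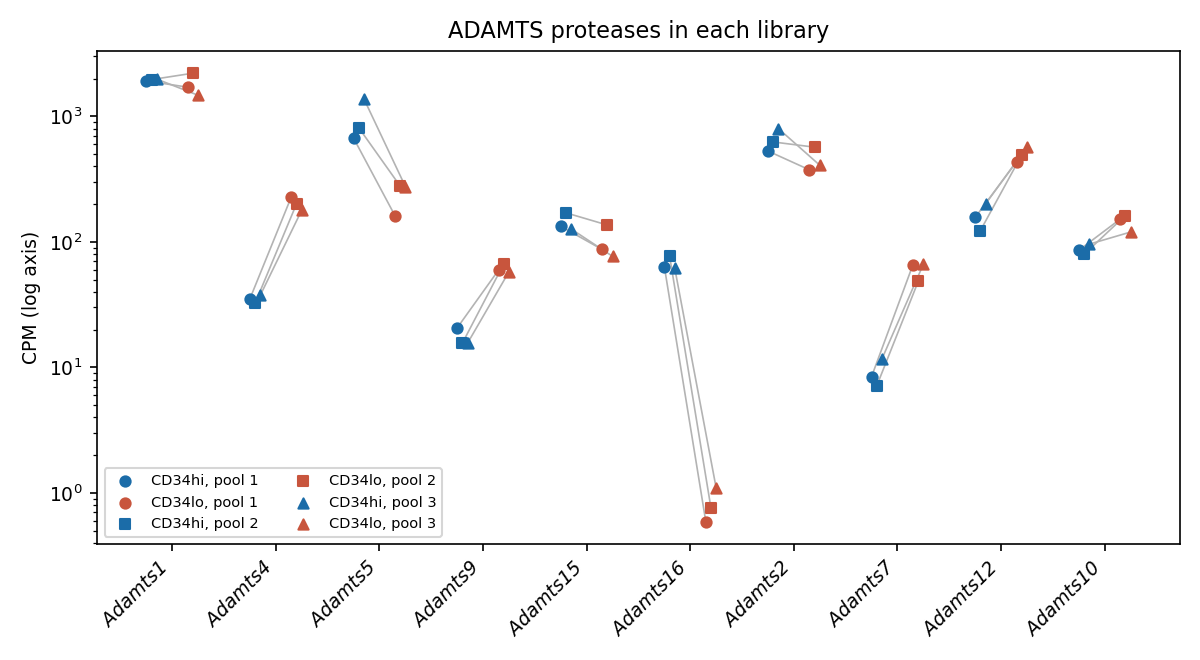
CPM of the 10 ADAMTS proteases in each library on a log axis, with a line joining the CD34hi and CD34lo libraries of 1 mouse pool. The lines of Adamts16 fall from 61.7 to 77.2 CPM in CD34hi to 0.590 to 1.09 CPM in CD34lo, while those of Adamts1 stay between 1471 and 2208 CPM.

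In the fit over all genes, 7 of the 10 were past the threshold, 2 of them higher in CD34hi (Adamts5 and Adamts16) and 5 higher in CD34lo (Adamts4, Adamts7, Adamts9, Adamts10 and Adamts12), beside 35.6% of all genes. The list was selected on these values, so nothing is read from that count. The same 7 had groups that did not overlap. The share of all genes with groups apart was not computed, so nothing is read from this count either. With the mouse pool as a block, 9 were past the threshold, beside 6161 of the 15219 genes tested, and nothing is read from that count. Adamts2 (log2 fold change 0.54) and Adamts15 (0.55) joined those higher in CD34hi. Without the CD34lo library of pool 2 both passed as well, at 0.73 for Adamts2 and 0.81 for Adamts15. Adamts2 passed also with DESeq2 (0.54) and without the CD34hi library of pool 1 (0.69), and Adamts15 without pool 2 (0.67). The median log2 fold change of the 10 was -0.31, and the median size was 1.74, beside -0.0064 and 0.40 over all genes tested. Because the 10 were selected on these values, nothing is read from the medians either.

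Levels of different genes were compared per length, as CPM per kilobase of exon (RPKM). In CD34hi the order was Adamts1 (399.8 ± 6.89 RPKM, SD, n = 3), Adamts2 (174 ± 36.7), Adamts5 (118 ± 46.2), Adamts12 (25.7 ± 6.27), Adamts15 (24.2 ± 3.98), Adamts10 (21.4 ± 2.04), Adamts16 (13.5 ± 1.72), Adamts4 (9.57 ± 0.697), Adamts9 (2.86 ± 0.483) and Adamts7 (1.70 ± 0.438). The ranges of Adamts2 and Adamts5 overlapped, as did those of Adamts12 with Adamts15 and of Adamts15 with Adamts10. In CD34lo the order was Adamts1 (367 ± 77.1 RPKM), Adamts2 (120 ± 27.6), Adamts12 (80.1 ± 10.9), Adamts4 (55.4 ± 6.86), Adamts10 (35.5 ± 5.44), Adamts5 (29.4 ± 8.24), Adamts15 (16.9 ± 5.36), Adamts7 (11.3 ± 1.92), Adamts9 (10.2 ± 0.790) and Adamts16 (0.163 ± 0.0515). There the overlapping neighbours were Adamts10 with Adamts5, Adamts5 with Adamts15, and Adamts7 with Adamts9. Adamts1 and Adamts2 thus led both orders, and Adamts4 and Adamts12 stood next in CD34lo where Adamts5 stood in CD34hi. Averaged over all libraries, Adamts1 was at the 99.0 percentile of the genes tested per length, and Adamts7 at the 55.0 percentile.

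Summed over the 10 genes, the level was 790 ± 93.3 RPKM in CD34hi and 727 ± 112 RPKM in CD34lo libraries (SD, n = 3), and the ranges overlapped. Adamts1 took 51.0 ± 5.02% of the sum in CD34hi and 50.3 ± 3.42% in CD34lo. Adamts5 took 14.6 ± 3.91% in CD34hi and 4.06 ± 1.15% in CD34lo, with ranges that were apart. Adamts12 took 3.23 ± 0.576% and 11.2 ± 2.55%, and Adamts4 1.22 ± 0.113% and 7.73 ± 1.42%, in the same order of populations. In these libraries the shares of Adamts4, Adamts5 and Adamts12 differed while the size of the sum overlapped. Nothing more is read from the shares, since the 10 genes were selected on these values.

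**Figure D2:**
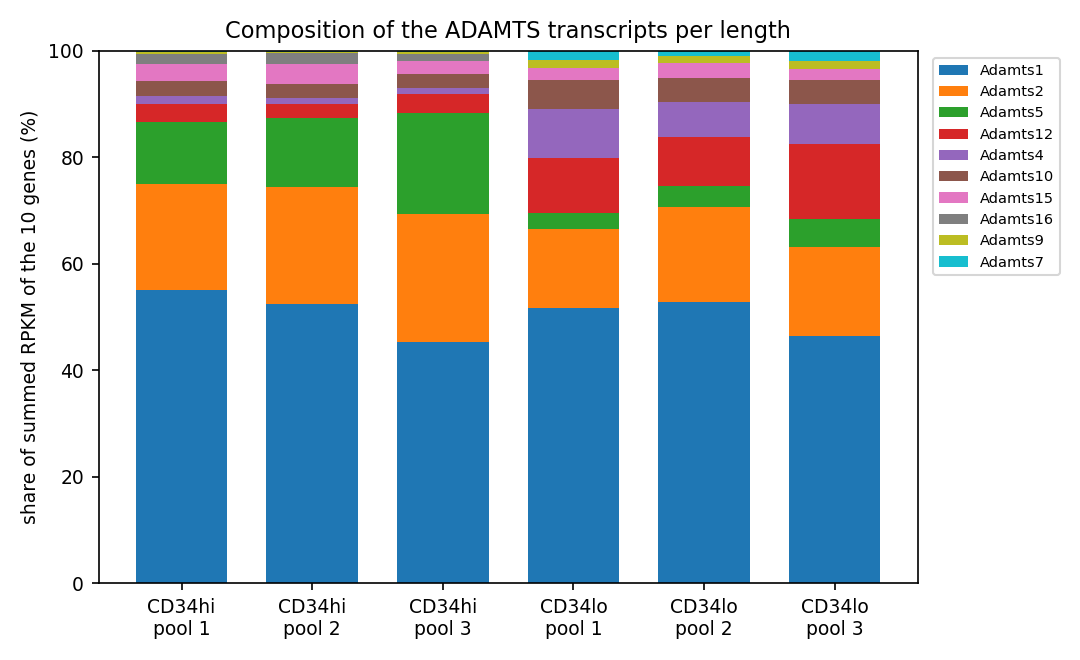
Share of each gene in the summed RPKM of the 10 ADAMTS proteases, in percent, with 1 bar per library. Adamts1 takes 45.4 to 55.1% of each bar in CD34hi and 46.4 to 52.8% in CD34lo, and the Adamts4 and Adamts12 segments are wider in the CD34lo bars.

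Because both populations came from the same pools, the pools themselves could be compared. This is not the contrast between the populations. The levels of the 10 genes in these libraries were known when they were chosen, so their counts here are a description. In an edgeR quasi-likelihood F test of the mouse pools, with the population as a term, 0 of the 10 genes and 0.999% of all genes tested were past the adjusted threshold. The smallest adjusted p among the 10 was 0.148, for Adamts5. At an unadjusted p under 0.05 there were 3 of the 10 (Adamts5, Adamts7 and Adamts15) and 12.1% of all genes. Limma-voom also had 0 of the 10 past the adjusted threshold. Adamts5 passed without pool 2, when 678 genes did, and when genes with low counts were kept, when 514 did.

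Adamts5 was lowest in pool 1 in both populations. Adamts15 was highest in pool 2 in both, at 170 CPM in CD34hi and 136 CPM in CD34lo, and Adamts7 was lowest in pool 2 in both. The SD of log2 CPM between CD34hi libraries was 0.025 for Adamts1 and 0.54 for Adamts5, beside a median of 0.19 over all genes tested. Between CD34lo libraries it was 0.30 for Adamts1 and 0.45 for Adamts5, beside a median of 0.23.

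**Figure D3:**
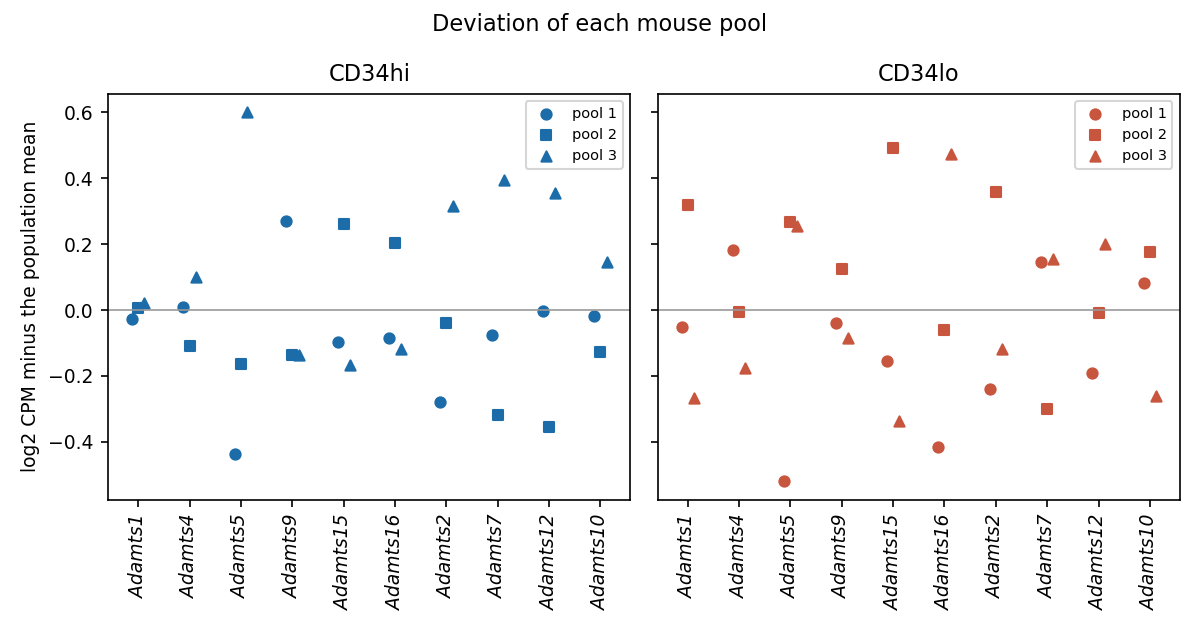
Deviation of each library from the mean log2 CPM of its population, for the 10 ADAMTS proteases, with CD34hi on the left and CD34lo on the right and 1 symbol per mouse pool. Adamts5 shows the widest spread in CD34hi (SD 0.54) and Adamts1 the narrowest (SD 0.025).

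For the 3 genes with the highest mean level per length, the genes with the most similar profile over the 6 libraries were found among 8873 genes by the Euclidean distance of centred log2 CPM. For Adamts1 they were Slc25a30 (distance 0.106), Hdhd2 (0.138) and Ldb1 (0.162). For Adamts2 they were Serping1 (0.109), H2-D1 (0.163) and Man2b2 (0.176). For Adamts5 they were Pdzd2 (0.272), Vegfd (0.361) and Met (0.371).

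Of the 9 ADAMTS proteases outside the list, 8 could be tested, and Adamts13, the protease of von Willebrand factor, had 0 counts in every library. Adamts3, a procollagen N-proteinase, was higher in CD34lo at 15.2 ± 3.36 CPM against 2.34 ± 0.458 CPM (log2 fold change -2.69, SE 0.23). Adamts17, linked to fibrillin microfibrils, was also higher in CD34lo (-3.31, SE 0.30), and so was Adamts20 (-2.67, SE 0.55), the relative of Adamts9, at only 1.02 ± 0.150 CPM in CD34lo. Adamts19 was higher in CD34hi (0.57, SE 0.18, adjusted p = 0.0376 with edgeR). That call was lost without pool 1 (0.65), pool 2 (0.32), the CD34hi library of pool 2 (0.35) or any 1 of the CD34lo libraries (0.54, 0.54 and 0.66), and with upper-quartile normalization (0.51). Adamts6 (0.61), Adamts8 (0.58), Adamts14 (-0.37) and Adamts18 (-0.84) did not pass, and Adamts6 and Adamts18 passed with the pool as a block (0.66 and -0.81). Adamts18 also passed without pool 2 (-0.88) or its CD34lo library (-1.15), Adamts8 without pool 3 (0.91) or its CD34hi library (0.97), and Adamts14 without the CD34lo library of pool 3 (-0.49) and with the block in limma-voom (-0.35). Gm8680, antisense to Adamts6, had 6379 counts against 940 for Adamts6, so the Adamts6 value is uncertain. Thus the procollagen N-proteinases Adamts2, Adamts3 and Adamts14 had log2 fold changes of 0.53, -2.69 and -0.37.

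The ADAMTS-like genes encode relatives that keep the thrombospondin repeats and lack the protease domain. All 7 were past the threshold with edgeR, 6 higher in CD34hi and 1 higher in CD34lo, beside 16.9% and 18.7% of all genes. The list was drawn up with earlier results of these data known, so nothing is read from these counts. Adamtsl4, a fibrillin-binding protein of the eye's zonule, was at 364 ± 26.4 CPM in CD34hi and 44.2 ± 12.7 CPM in CD34lo (log2 fold change 3.04, SE 0.21). Papln (1.79), Adamtsl1 (0.96), Adamtsl3 (0.80), Thsd4 (0.62) and Adamtsl5 (0.53) were higher in CD34hi as well. Adamtsl2, which binds fibrillin and latent TGF-beta binding proteins, was at 1.59 ± 0.307 CPM in CD34hi and 30.3 ± 17.3 CPM in CD34lo (-4.25, SE 0.44). The call of Adamtsl1 was lost without pool 1 (0.83) or pool 3 (0.78), or without the CD34hi library of pool 2 (0.98) or 3 (0.88) or the CD34lo library of pool 1 (0.76) or 3 (0.86). That of Thsd4 was lost without pool 1 (0.71) or pool 2 (0.36), the CD34hi library of pool 2 (0.46) or the CD34lo library of pool 1 (0.64) or 2 (0.53), that of Adamtsl3 without pool 3 (0.68) and that of Adamtsl5 without pool 2 (0.47).

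**Figure D4:**
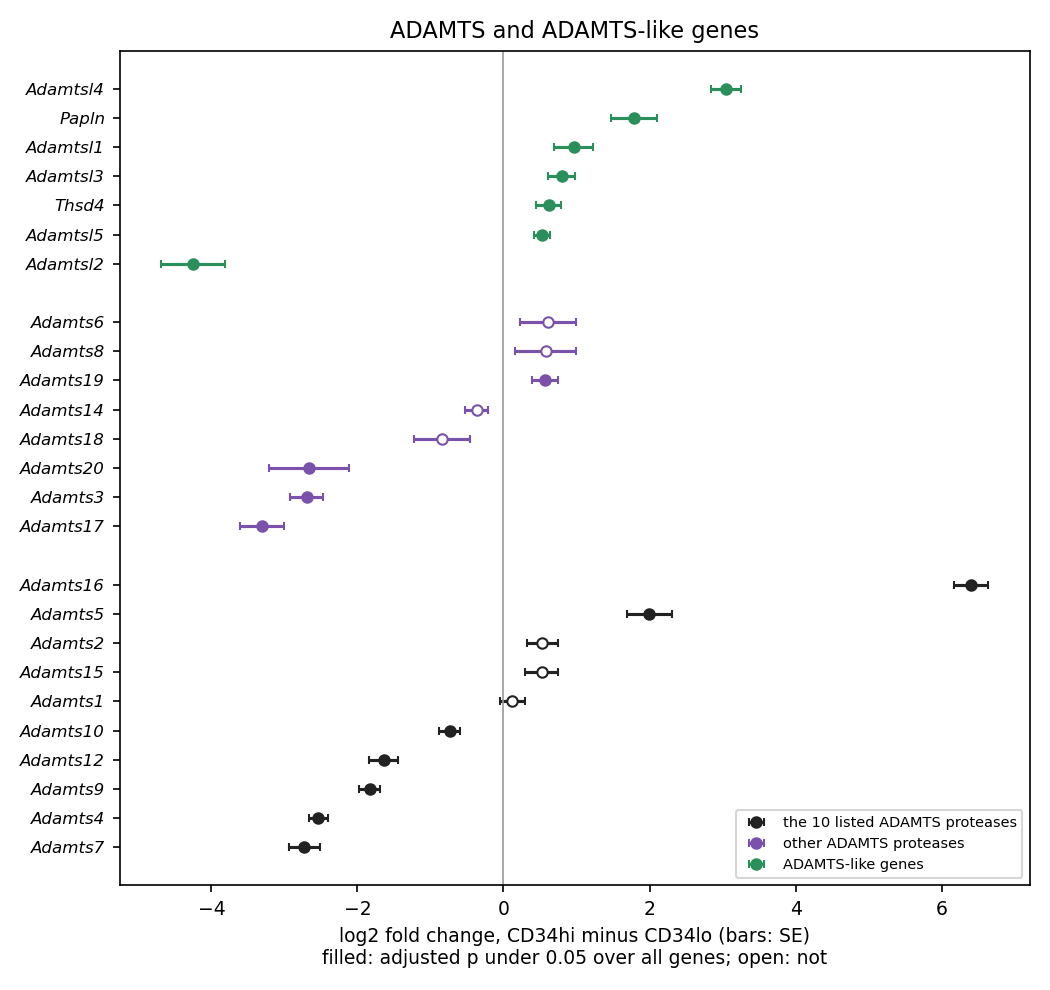
Log2 fold change (CD34hi minus CD34lo) with its SE for the 10 listed ADAMTS proteases, 8 other ADAMTS proteases and 7 ADAMTS-like genes, filled where the adjusted p was under 0.05 over all genes. Values run from -4.25 for Adamtsl2 to 6.41 for Adamts16.

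Genes that work with these proteases were taken from 6 lists of substrates, cofactors and processing enzymes with 43 genes, of which 39 could be tested. Of these, 25 passed with edgeR, 10 higher in CD34hi and 15 higher in CD34lo, a share of 64.1% beside 35.6% of all genes. These lists were drawn up with earlier results of these data known, so nothing is read from that share. Among the hyaluronan-binding proteoglycans and link proteins, only 2 of 6 could be tested. Vcan, encoding versican, the main substrate of Adamts1, Adamts4, Adamts5, Adamts9 and Adamts15 in soft tissue, was at 526 ± 65.6 CPM in CD34hi and 519 ± 195 CPM in CD34lo and did not pass (0.020, SE 0.27). Hapln3, a link protein, was higher in CD34lo (-2.99, SE 0.48), at only 3.55 ± 2.14 CPM against 0.446 ± 0.150 CPM in CD34hi. Acan, encoding aggrecan, had 38 counts over all 6 libraries.

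Of 9 procollagen genes and processing enzymes, 3 were higher in CD34hi and 4 higher in CD34lo. Those higher in CD34hi were Pcolce2, an enhancer of procollagen C-proteinase (2.14), and the C-proteinases Tll1 (1.62) and Bmp1 (1.02). Those higher in CD34lo were the substrates Col2a1 (-2.97), Col1a1 (-0.87) and Col1a2 (-0.69) and the enhancer Pcolce (-0.65). Col3a1 (-0.44) and Col5a1 (-0.042) did not pass, but Col3a1 passed with DESeq2 (-0.44) and without the CD34hi library of pool 3 (-0.59). The calls of Col1a1 (-0.78 and -0.72), Col1a2 (-0.62 and -0.56) and Pcolce (-0.65 and -0.44) were lost without pool 1 and without pool 2, and those of Col1a2 and Pcolce also without either pool's CD34hi library (-0.59 and -0.63 for Col1a2, -0.56 and -0.63 for Pcolce), and that of Col1a2 without the CD34lo library of pool 1 (-0.68).

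Of 12 other matrix substrates, 3 were higher in CD34hi and 5 higher in CD34lo. Fbn1, the main fibrillin of adult microfibrils, was at 6991 ± 807 CPM in CD34hi and 1544 ± 254 CPM in CD34lo (2.18, SE 0.19), and Fbn2, the fibrillin of the embryo, ran the other way at 13.1 ± 2.71 and 106 ± 43.6 CPM (-3.02, SE 0.33). The basement membrane linkers Nid1 (1.32) and Nid2 (-2.07) likewise differed in opposite directions. Fn1, encoding fibronectin, was higher in CD34hi (1.29). The lymphangiogenic ligand Vegfc (-2.74), the proteoglycan gene Bgn (-2.37) and Thbs1 (-1.71), which was singled out after its values were seen, were higher in CD34lo. Comp, the namesake substrate of Adamts7 and Adamts12, was under 2 CPM in every library and did not pass (-1.47, SE 0.52), but passed with the pool as a block (-1.45), as did Lox (-0.59, and -0.63 with the block). Comp also passed with DESeq2 (-1.47), with upper-quartile normalization (-1.53) and without the CD34lo library of pool 3 (-1.75), and Lox without the CD34hi library of pool 3 (-0.85).

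Timp3, the one tissue inhibitor of metalloproteinases that blocks several ADAMTS aggrecanases, was at 1673 ± 331 CPM in CD34hi and 739 ± 112 CPM in CD34lo (1.18, SE 0.19). The membrane-anchored inhibitor Reck (0.62) was also higher in CD34hi, and Fbln1, a cofactor of Adamts1 (-0.66), and the heparan sulfate proteoglycan Sdc4 (-0.96) were higher in CD34lo. Lrp1, the receptor that takes up several ADAMTS proteases (-0.29), and A2m (-0.62) did not pass. Without pool 1 the calls of Reck (0.54), Fbln1 (-0.68) and Sdc4 (-0.94) were lost. That of Reck was lost also without pool 3 (0.60), and that of Fbln1 without pool 2 (-0.42), the CD34hi library of pool 1 (-0.56) or 2 (-0.60) or the CD34lo library of pool 2 (-0.47).

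Of the 4 convertases that can remove ADAMTS propeptides, Pcsk6 was at 526 ± 54.3 CPM in CD34hi and 49.7 ± 18.8 CPM in CD34lo (3.41, SE 0.29), and Pcsk5 was higher in CD34lo (-0.84, SE 0.13). Furin (0.035) and Pcsk7 (-0.35) did not pass. Pcsk7 passed in 5 alternatives, namely limma-voom without (-0.36) and with the block (-0.35), RLE (-0.35) and upper-quartile normalization (-0.40), and a minimum of 10 counts in every library (-0.36). Of 6 listed enzymes that add sugars to proteins, Poglut3 was higher in CD34hi (1.44). B3glct (-0.63) and Pofut2 (-0.45), which build the fucose-glucose unit on thrombospondin repeats, were higher in CD34lo. Dpy19l1 (0.20), Dpy19l3 (0.13) and Poglut2 (-0.28) did not pass, but Poglut2 passed without the CD34lo library of pool 2 (-0.40). The calls of B3glct and Pofut2 were lost without pool 1 (-0.46 and -0.37), the CD34hi library of pool 1 (-0.57 and -0.44) or 2 (-0.65 and -0.45), or the CD34lo library of pool 1 (-0.49 and -0.35). That of Pofut2 was lost also without pool 2 (-0.50), and that of B3glct without pool 3 (-0.54) or its CD34hi (-0.63) or CD34lo library (-0.53).

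**Figure D5:**
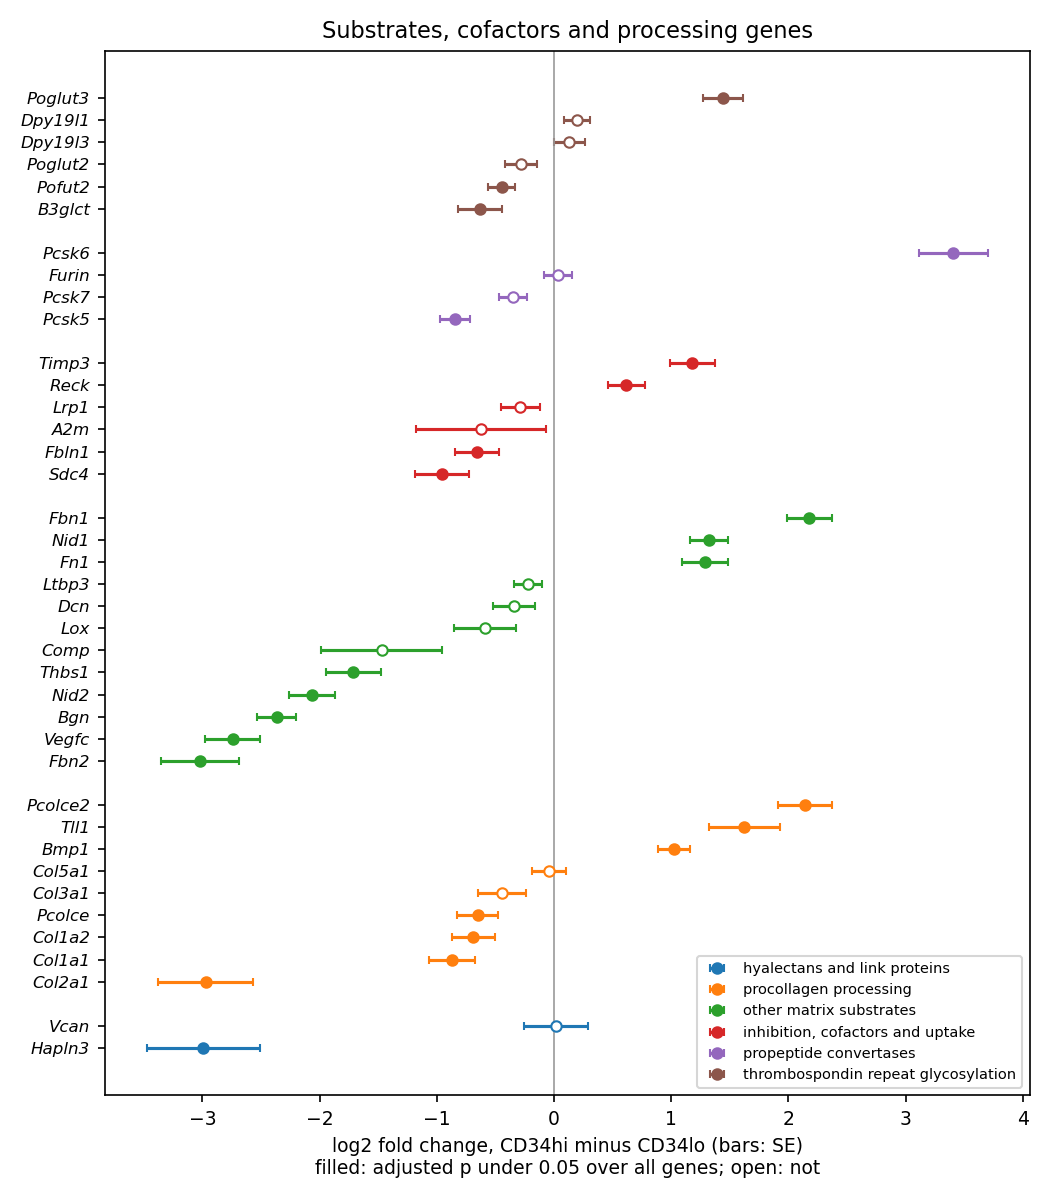
Log2 fold change (CD34hi minus CD34lo) with its SE for 39 substrates, cofactors and processing genes in 6 lists, filled where the adjusted p was under 0.05 over all genes. Pcsk6 (3.41), Fbn1 (2.18) and Pcolce2 (2.14) lie farthest to the CD34hi side and Fbn2 (-3.02) and Hapln3 (-2.99) farthest to the CD34lo side.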

How the data were processed

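Bulk RNA-seq libraries (TruSeq RNA v2, NextSeq 500) were aligned by the authors to GRCm38/mm10 and counted per gene with Rsubread. The deposited values are raw counts per gene and library. The annotation and strand setting are not given in the sources used here, and the kit does not mark strand. Symbols and promoters came from RefSeq tables of GRCm38.p6, and 25275 of 27179 genes had a symbol. The transcript sequences searched for shared words came from GENCODE.

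The populations were compared by edgeR 4.0.16 under R 4.3.3 (filterByExpr, TMM, quasi-likelihood test, Benjamini-Hochberg threshold 0.05), with the population as the term, although the study used limma-voom, here an alternative (limma 3.58.1). Libraries held 28764779 to 52402410 counts, and the common coefficient of variation was 19.7%. CPM used TMM-scaled libraries, and RPKM used the deposited exon length. DESeq2 1.42.0, other normalizations and filters, the pool as a block, and each pool and library left out were alternatives. Same-numbered libraries came from the same mice, and their deviations correlated at 0.279, 0.0844 and 0.243. The members and lists were chosen with earlier results of these data known. Text names all ADAMTS and ADAMTS-like genes and, from other lists, up to 4 per direction past the threshold and some that were not, with Thbs1 as the exception.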

Additional observations from a re-analysis of the deposited data

How the results depend on the processing

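The 10 ADAMTS proteases kept the direction of their difference in every alternative, apart from Adamts1, whose log2 fold change lay between -0.011 and 0.30. Of 170 refitted values of these genes, 2 moved by more than the spread between replicates, Adamts10 (-0.93) and Adamts16 (6.74), both without pool 3. With the replicate block, which pairs the libraries of 1 mouse pool, 4 members were higher in CD34hi with edgeR and with limma-voom, against 2 without it, and 6161 genes differed in all, and the block also changed the calls of Adamts6, Adamts18, Comp and Lox with edgeR. Leaving out 1 pool or library gave 6 to 9 of the 10 members past the threshold, 2 to 4 of them higher in CD34hi and 4 to 5 higher in CD34lo. Over all genes it gave 3468 to 5236, with 1608 to 2456 higher in CD34hi and 1860 to 2780 higher in CD34lo. For the other ADAMTS and ADAMTS-like genes it gave 4 to 7 higher in CD34hi, and for the substrates, cofactors and processing genes 8 to 16 higher in CD34lo. The pool test called 273 genes with limma-voom and 514 without a filter on low counts, against 152, and then 1 of the 10 members without the filter, and 27 to 678 genes and 0 to 1 members when a pool was left out. The sign turned for genes near 0. Vcan was at -0.031 with upper-quartile normalization and at -0.28 to 0.31 when a pool or library was left out, Furin at -0.018 and at -0.054 to 0.12, and Col5a1 at -0.090 to 0.022 when a pool or library was left out. The cause of these changes was not tested. Depth limited the lowest genes, since the CD34hi library of pool 1 held 2 counts of Adamts20, whose fitted fold change then depends on the prior count.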
